A study of Mus musculus with 36 samples.

Results

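The immunoglobulin loci of the mouse were examined as DNase I hypersensitive sites (DHS), stretches of open chromatin that the enzyme DNase I cuts readily, in a pre-B cell line sampled over a day. Every DHS of the deposited table that overlapped the heavy chain locus Igh (chr12:113255000-116010000, mm10), the kappa locus Igk (chr6:67555000-70745000) or the lambda locus Igl (chr16:19020000-19265000) was taken by position alone. This gave 156 of the 52788 DHS: 106 in Igh, 44 in Igk and 6 in Igl.

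B3, a mouse pre-B lymphocyte line, had been transduced with an MSCV retrovirus encoding either HA-Ikaros fused to ERt2 with IRES-GFP (Ikaros line) or ERt2 alone with IRES-GFP (Control line), so both lines carried the hormone-binding domain and the marker. 4-hydroxy-tamoxifen (4-OHT, 0.5 µM), which moves the fusion protein to the nucleus, was given to both lines, and cells were taken at 0, 2, 6, 12, 18 and 24 h. The labels name the drug for every library, whereas the methods of the study state that 0 h cells received none and were obtained separately. Each of the 12 groups held 3 libraries, numbered 4, 5 and 6, which the labels assign to batches 11, 12 and 13. Each construct was studied in a single GFP-sorted population of a single parental line, with Ikaros overexpressed from the viral promoter beside the endogenous gene. The values are log2 of length- and depth-scaled reads (RPKM with TMM scaling) after removal of systematic noise by the authors, so DHS of different length can be compared with each other, 1 unit is a doubling, and the number of reads behind a value is unknown. In bulk cells, fewer cells with an open site and a less open site in every cell cannot be told apart.

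B cells assemble a receptor by joining V, D and J segments of the heavy chain locus, then V and J segments of a light chain locus, and the DNA between joined heavy chain segments is removed. The RAG recombinase cuts beside a conserved heptamer at each segment, and V promoters carry an octamer that binds Oct factors. Ighm and Igkc encode the constant parts of the IgM heavy chain and the kappa light chain. The intronic enhancer Eμ is known to lie between the heavy chain J segments and Ighm, a kappa enhancer lies 3′ of Igkc, duplicated lambda enhancers lie 3′ of the lambda constant genes, and the silencing elements Cer and Sis lie between the kappa V and J segments. Ikaros, encoded by Ikzf1, is a zinc finger factor that drives pre-B cells out of cycle towards light chain joining. None of these regulatory elements is part of the annotation used, so sites are described by position and not identified with an element.

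The promoters of 8 of 9 B lineage marker genes held a DHS, Pax5 and Ebf1 among the most accessible of the table (98.6th and 99.3rd percentile). Rag2, which encodes a subunit of the recombinase, had none within 1000 bp of a transcription start. A promoter DHS was found at 1 of 7 T cell markers (Lck, 65.5th percentile), 1 of 6 myeloid markers (Lyz2, 12.7th percentile) and 1 of 4 erythroid markers (Klf1, 79.1st percentile).

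Sequences are shown for the sites on which the results below turn: the site between the J segments and Ighm, the site 3′ of Igkc, the site in the kappa V to J gap that differed between the lines, a pair of lambda sites 3′ of the constant genes, a pair of heavy chain sites that were among the most open, and the kappa V segment sites at Igkv15-103 and Gm43586. Each is the 300 bp around the centre of a DHS, read 5′ to 3′ on the plus strand of the RefSeq GRCm38.p6 (mm10) genome. Capitals mark every match, on either strand, to the octamer ATGCAAAT, the E-boxes CAGGTG and CAGCTG, the Ets-type core GAGGAA, the Ikaros core TGGGAA, the recombination heptamer CACAGTG and the CTCF core motif. No match overlapped another in the sequences shown.
Igh J to Ighm intron, chr12:113427350-113427649: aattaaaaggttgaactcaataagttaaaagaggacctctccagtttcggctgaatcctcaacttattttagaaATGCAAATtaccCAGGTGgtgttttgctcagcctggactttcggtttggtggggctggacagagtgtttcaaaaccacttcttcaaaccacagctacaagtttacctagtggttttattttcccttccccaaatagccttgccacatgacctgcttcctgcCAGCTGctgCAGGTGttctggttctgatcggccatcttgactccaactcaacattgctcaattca
Igk 3′ of Igkc, chr6:70735529-70735828: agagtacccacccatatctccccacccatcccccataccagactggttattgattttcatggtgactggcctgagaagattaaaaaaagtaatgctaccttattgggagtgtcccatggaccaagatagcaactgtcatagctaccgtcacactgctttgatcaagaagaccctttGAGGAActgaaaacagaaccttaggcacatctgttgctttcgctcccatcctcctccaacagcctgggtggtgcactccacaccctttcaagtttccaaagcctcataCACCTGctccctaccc
Igk V to J gap, farther site, chr6:70709517-70709816: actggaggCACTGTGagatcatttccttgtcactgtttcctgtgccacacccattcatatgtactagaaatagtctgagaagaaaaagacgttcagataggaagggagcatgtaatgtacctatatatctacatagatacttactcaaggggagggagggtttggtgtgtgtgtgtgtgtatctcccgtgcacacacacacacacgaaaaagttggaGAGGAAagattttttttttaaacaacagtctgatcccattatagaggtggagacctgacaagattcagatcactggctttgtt
Igl 3′ of Iglc1, chr16:19027170-19027469: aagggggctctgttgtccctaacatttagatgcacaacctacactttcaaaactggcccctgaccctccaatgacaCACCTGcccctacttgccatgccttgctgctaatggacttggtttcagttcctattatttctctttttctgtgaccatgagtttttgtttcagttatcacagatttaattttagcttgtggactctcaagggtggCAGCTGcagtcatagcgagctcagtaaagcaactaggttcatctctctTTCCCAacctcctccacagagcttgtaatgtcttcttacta
Igl 3′ of Iglc4, chr16:19179267-19179566: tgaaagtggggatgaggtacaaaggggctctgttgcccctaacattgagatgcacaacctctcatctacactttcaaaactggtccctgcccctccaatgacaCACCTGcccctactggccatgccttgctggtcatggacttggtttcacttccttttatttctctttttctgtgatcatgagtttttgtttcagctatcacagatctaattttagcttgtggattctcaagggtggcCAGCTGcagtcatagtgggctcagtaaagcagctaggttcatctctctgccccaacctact
Igh, upstream of Ighv1-67, chr12:115605015-115605314: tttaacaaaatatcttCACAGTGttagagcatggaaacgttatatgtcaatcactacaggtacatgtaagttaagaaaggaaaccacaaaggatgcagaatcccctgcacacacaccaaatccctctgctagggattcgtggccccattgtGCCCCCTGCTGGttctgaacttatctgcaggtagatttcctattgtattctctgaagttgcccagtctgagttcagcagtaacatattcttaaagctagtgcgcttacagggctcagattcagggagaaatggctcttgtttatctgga
Igh, upstream of Ighv1-69, chr12:115624269-115624568: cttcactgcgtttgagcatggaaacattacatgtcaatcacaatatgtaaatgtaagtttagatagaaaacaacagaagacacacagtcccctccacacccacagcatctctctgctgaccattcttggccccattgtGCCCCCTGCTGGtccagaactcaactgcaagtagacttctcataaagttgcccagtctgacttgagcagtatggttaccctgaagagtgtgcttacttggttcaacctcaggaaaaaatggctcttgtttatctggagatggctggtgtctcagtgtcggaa
Igk at Igkv15-103, chr6:68437237-68437536: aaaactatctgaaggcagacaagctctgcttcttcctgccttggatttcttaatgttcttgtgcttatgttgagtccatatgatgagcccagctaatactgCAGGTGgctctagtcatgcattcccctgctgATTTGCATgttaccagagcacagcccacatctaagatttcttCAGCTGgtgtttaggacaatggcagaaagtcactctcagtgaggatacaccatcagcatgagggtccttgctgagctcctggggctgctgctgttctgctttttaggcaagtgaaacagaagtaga
Igk upstream of Gm43586, chr6:70040916-70041215: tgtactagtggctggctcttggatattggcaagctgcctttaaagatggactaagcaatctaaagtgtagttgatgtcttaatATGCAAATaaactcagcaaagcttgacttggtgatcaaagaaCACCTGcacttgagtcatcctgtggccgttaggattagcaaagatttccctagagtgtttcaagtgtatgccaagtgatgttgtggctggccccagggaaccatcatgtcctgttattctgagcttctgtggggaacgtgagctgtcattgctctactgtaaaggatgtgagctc

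The intron window held the octamer together with 3 E-boxes, and both kappa V windows held the octamer beside an E-box. The lambda pair was nearly the same sequence: 252 of 272 aligned bases were identical (92.6%), and both windows shared a CAGGTG and a CAGCTG E-box. The heavy chain pair was identical at 219 of 274 aligned bases (79.9%) and both windows held a CTCF core motif. The window 3′ of Igkc held an E-box and a GAGGAA core.

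Most immunoglobulin DHS were weak. The median level over the 36 libraries was 3.48 for the 156 sites (3.43 in Igh, 3.55 in Igk and 3.55 in Igl) beside 3.95 for all DHS and 3.82 for those outside promoters, and 29 of 156 lay above the median of the table. The levels ran from 2.10 to 5.51. The highest lay upstream of Ighv1-67 (5.51, 96.5th percentile of all DHS), followed by the intron site next to the J segments (5.01, 89.8th percentile), an intergenic kappa site at chr6:68884090-68884631 (4.94), the site 3′ of Iglc4 (4.77) and the site upstream of Ighv1-69 (4.76).

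**Figure D1:**
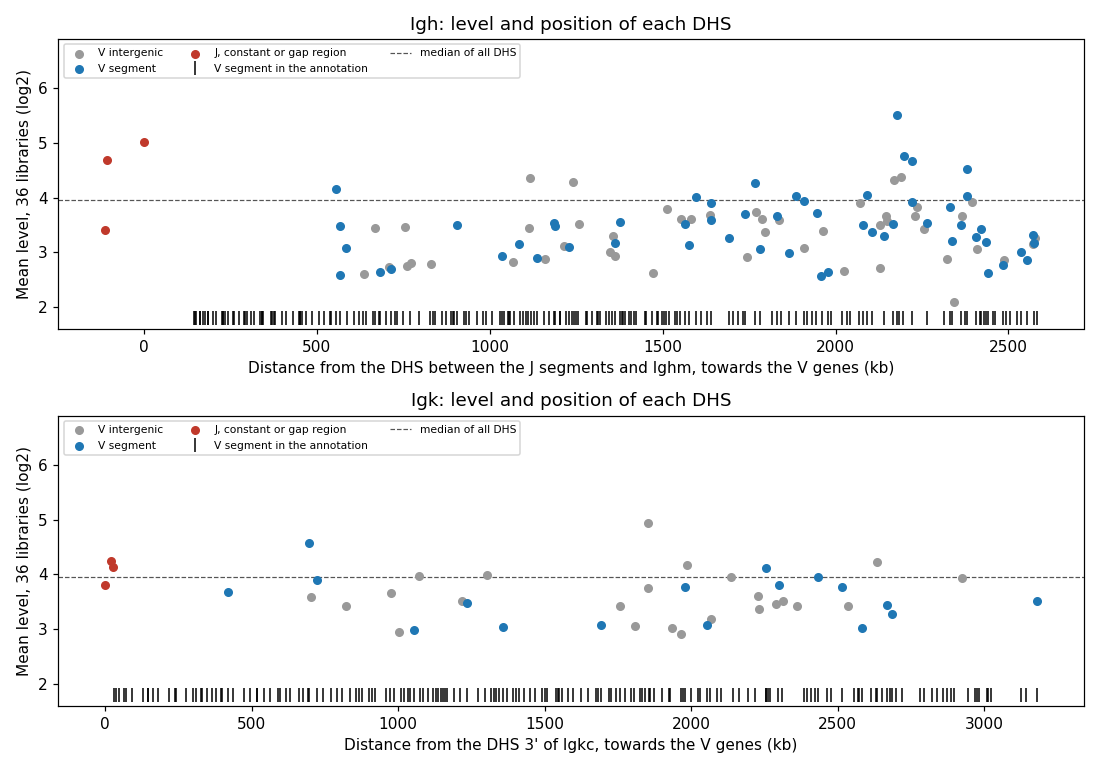
Mean level over 36 libraries (log2, vertical axis) of each DHS of Igh (upper panel) and Igk (lower panel) against its distance in kb from the site between the J segments and Ighm, or from the site 3′ of Igkc, counted towards the V genes. Points are DHS, coloured by position class, ticks are annotated V segments and the dashed line is the median of all DHS (3.95). The heavy chain panel shows no DHS over the V segments nearest to the J segments, and a group of sites near Ighv1-67 that rises to 5.51.

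The sites were placed unevenly. In Igh, a stretch of 553927 bp from the intron site to the first V site at Ighv11-1 held no DHS although the annotation places 45 V, 22 D and 4 J segments there. Of the 2085 intervals between neighbouring DHS on chromosome 12, 27 were at least as long, with a median of 17512 bp. From Ighv11-1 on, 103 DHS lay in 2.02 Mb, or 51.0 per Mb, beside 17.4 per Mb for chromosome 12 and 24.0 and 60.0 per Mb in the 2 Mb on the V side and on the constant side of the locus. Igk held 13.8 DHS per Mb beside 18.4 for chromosome 6. The 2 Mb on its V side held 18.5 per Mb and the 2 Mb on its constant side 47.5. Its longest empty stretch (394339 bp, 25 V segments) reached from the V to J gap over Igkv3-1 to Igkv8-21. No DHS overlapped Ighm, Igkc or any D or J segment. Reads were mapped uniquely by the authors, so a V segment with near-identical copies could lose reads, and the part of mapping in the empty stretches was not tested. Whether the cells still carry the heavy chain DNA of the empty stretch, which joining can remove, was not tested either.

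Where V segments had a site, the family and the place in the gene differed. Of the 151 heavy chain V segments from Ighv11-1 on, 50 had a DHS within 1000 bp: 37 of 90 functional genes (41.1%) and 13 of 61 pseudogenes (21.3%). The Ighv8 family had one at 13 of 16 segments, the large Ighv1 family at 30 of 93, and none of the 45 segments nearer to the J segments had one. In Igk, 17 of 176 segments did, among them 4 of 10 Igkv2, 2 of 5 Igkv15 and 5 of 33 Igkv4 segments, and in Igl none of 3.

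The place of the site relative to the V gene varied within and between the loci. The centres of the 31 sites near Ighv1 segments lay at a median of 447 bp downstream of the V start (range −834 to 703), and 21 of them covered the end of the gene, where the recombination heptamer lies. The 16 sites near Ighv8 segments had a median of 528 bp, and 8 of them covered the V end. The 17 kappa sites had a median of −54 bp and 9 were centred upstream of the V start, with 4 covering the start, 6 the end and 7 neither.

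**Figure D2:**
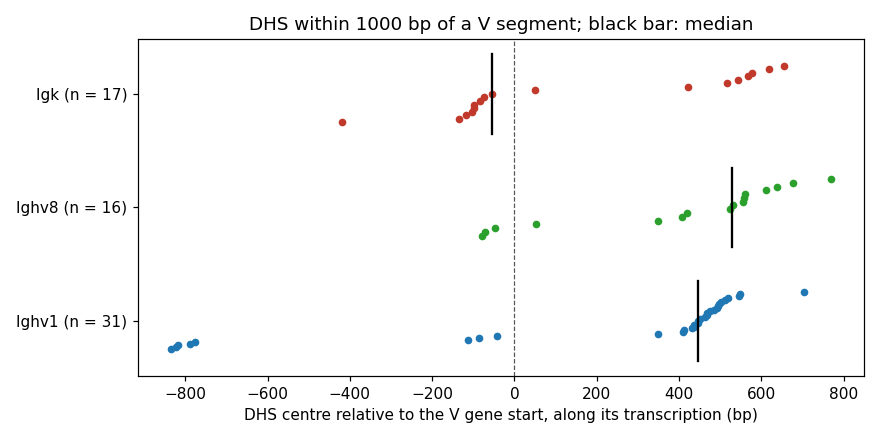
Distance in bp of the centre of each V segment DHS from the start of its V gene, along the direction of transcription, for the kappa locus (17 DHS), the Ighv8 family (16) and the Ighv1 family (31). Each point is a DHS and the black bar is the median. Kappa points fall around −54 bp and again beyond 400 bp, whereas most Ighv1 and Ighv8 points fall beyond 400 bp.

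Motif matches were counted in the same windows. The octamer was found in 12 of 17 kappa V segment windows, 9 of 55 heavy chain V segment windows and 0 of 48 heavy chain intergenic windows, beside 2.27% of all DHS windows of the same length. The heptamer was found in 26 of 55 heavy chain V segment windows, including 21 of 31 near Ighv1 but 1 of 16 near Ighv8, and in 7 of 17 kappa V segment windows, beside 8.73% of all. Ighv8 windows held the CAGGTG E-box in 9 of 16 cases (21.8% of all) and the GAGGAA core in 11 of 16 (32.4% of all). The CTCF core motif was present in 11 of 48 heavy chain intergenic windows and in 1 of 44 kappa windows, beside 11.4% of all. The CAGCTG E-box was in 32 of 156 windows (19.7% of all) and TGGGAA in 15 of 156 (24.7% of all). A match is a description of the sequence and not of binding, and neighbouring V segments of a family share sequence.

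The site between the J segments and Ighm (chr12:113427186-113427812, 702 bp 3′ of Ighj4) was high in every library. In the Control line its levels were 5.06, 4.54 and 4.81 at 0 h, 5.48, 4.66 and 5.05 at 2 h, 4.78, 4.86 and 5.14 at 6 h, 4.65, 4.74 and 5.02 at 12 h, 4.96, 5.30 and 5.15 at 18 h, and 4.74, 4.62 and 5.28 at 24 h. In the Ikaros line they were 4.93, 5.21 and 4.99 at 0 h, 5.34, 4.91 and 4.99 at 2 h, 5.05, 5.27 and 5.04 at 6 h, 4.85, 5.03 and 5.24 at 12 h, 5.22, 5.16 and 5.07 at 18 h, and 5.41, 5.14 and 4.83 at 24 h. The groups overlapped at every time, and in the order of the 12 group means, from Ikaros 18 h (5.15 ± 0.07, SD, n = 3) to Control 0 h (4.80 ± 0.26), no neighbours were separated. The largest difference between the lines was 0.25 ± 0.19 (SE) at 24 h (limma adjusted p = 0.61).

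The 2 sites among the constant genes, both between Ighg2b and Ighg1, passed no test. The one nearer to Ighg1 (chr12:113320953-113321505, 3.7 kb 3′ of it) was at 4.70 on average and was lower in the Ikaros line at all 6 times by 0.10 to 0.46. The groups did not overlap at 0, 2, 6 and 18 h, with limma adjusted p of 0.43, 0.29, 0.21 and 0.23. The other (chr12:113314533-113315051, 6.6 kb from Ighg2b) differed by −0.90 ± 0.26 at 2 h (adjusted p = 0.15) and by −0.28 to −0.11 at the remaining times.

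At 0 h, before the nuclear move of Ikaros was induced by the account of the methods, the lines already differed across the kappa locus. All 44 kappa DHS were lower in the Ikaros line, with a median difference of −0.76, and 16 of them fell below the Control line past the limma threshold (adjusted p under 0.05). Among all DHS 12.9% passed it at 0 h, 5.04% lower and 7.81% higher in the Ikaros line. Over the 3 loci 20 of 156 passed, close to that share in total but divided differently from all DHS. Of these 19 were lower (16 in Igk, 2 in Igh and 1 in Igl) and 1, in Igh, was higher. Outside promoters 2496 of 39131 DHS were lower past the threshold and 738 higher, so lower calls were the more common there as well.

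The median over the kappa sites of each library was 4.04, 3.72 and 3.86 in the Control line and 3.09, 3.04 and 2.97 in the Ikaros line at 0 h, with no overlap. Within batches 11, 12 and 13 the median difference was −0.79, −0.91 and −0.69, and 39, 39 and 36 of 44 sites were lower. The median difference of the heavy chain sites was 0.08, with 42 of 106 lower, and within batches it was 0.06, 0.12 and −0.04. All 6 lambda sites were lower, with a median of −0.48. DHS outside promoters were lower at 0 h in 65.3% of cases with a median of −0.19, and the 99 such DHS in the 2 Mb on each side of Igk had a median of −0.25, with 74 lower and 6 past the threshold. Kappa sites of at most 200 bp had a median of −0.98 and wider ones of −0.62, whereas outside promoters narrow DHS of the whole table had −0.24 and wider ones −0.15. The part of width by itself in the kappa difference was not tested. When the trends of the differences along level, GC content and width were removed, the kappa median was −0.51 with 40 of 44 lower and 4 past the threshold, and after quantile normalization it was −0.57 with 41 lower and 6 past the threshold. Calls fell over the whole table too: after quantile normalization 2.89% of all DHS were lower past the threshold, with a median of −0.007.

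**Figure D3:**
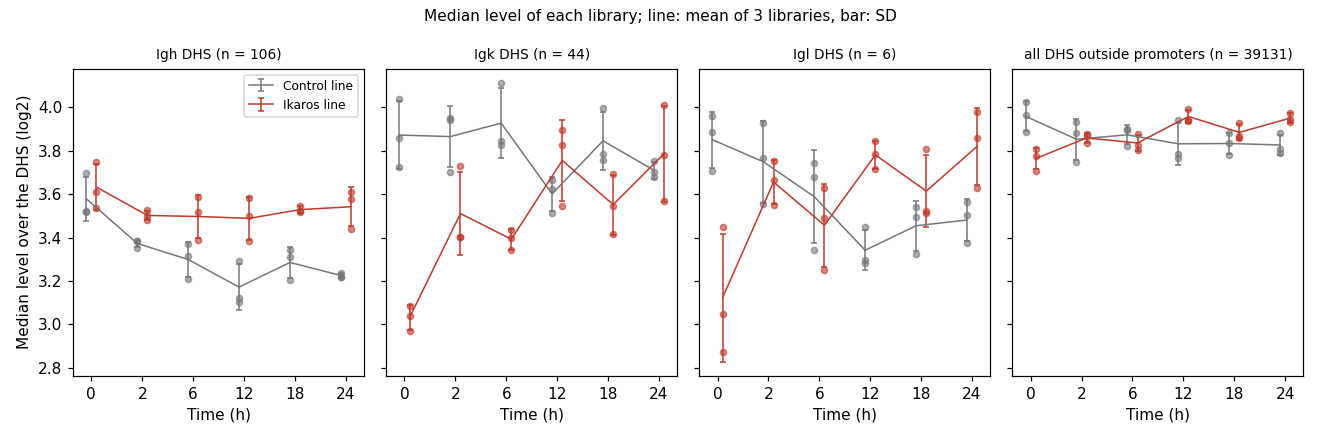
Median level (log2) over the DHS of each locus in each library, against time in h, with DHS outside promoters for comparison. Points are libraries, lines join the means of 3 libraries and bars are SD; grey is the Control line and red the Ikaros line. The 3 Ikaros libraries at 0 h lie between 2.97 and 3.09 in Igk, below the 3 Control libraries (3.72 to 4.04), and the lines overlap there at 24 h.

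Among the kappa V segments, all 17 sites were lower at 0 h and 8 passed the threshold. After the site upstream of Gm43586, given below, the lowest adjusted p was at Igkv15-103 (chr6:68437121-68437651), a functional gene whose start the site covers. Its levels at 0 h were 4.13, 3.72 and 4.31 in the Control line and 2.46, 2.69 and 2.84 in the Ikaros line, a difference of −1.39 ± 0.20 (limma adjusted p = 0.00022). At 2 h they were 3.46, 3.71 and 4.14 against 3.82, 3.65 and 3.52, and the groups overlapped.

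At 6 h the levels at Igkv15-103 were 4.16, 4.14 and 4.31 in the Control line and 3.55, 3.45 and 3.33 in the Ikaros line, again apart but not past the threshold (−0.76 ± 0.20, adjusted p = 0.079). At 12 h they were 4.30, 3.62 and 4.01 against 4.05, 4.12 and 4.28, which overlapped, and at 18 h 4.23, 4.15 and 3.92 against 3.71, 3.73 and 3.57, which did not. At 24 h they were 3.81, 4.10 and 4.16 against 4.18, 4.04 and 3.70, with a difference of −0.05 ± 0.20 (adjusted p = 0.95). It was the only one of the 156 sites with an interaction of line and time (limma adjusted p = 0.0239; 1.1% of all DHS passed). That call was lost after quantile normalization (adjusted p = 0.089), with trends removed (0.15) and with a spread per group (0.088). The site changed with time within the Ikaros line (adjusted p = 0.0018).

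The Igkv2 family held 4 of the V segment sites that were lower at 0 h. The site at Igkv2-112 (chr6:68219629-68220135) was at 4.26, 4.13 and 3.75 in the Control line and 1.70, 3.76 and 2.94 in the Ikaros line, which overlapped, with a difference of −1.25 ± 0.30 (limma adjusted p = 0.0075). The site at the pseudogene Igkv2-116 (chr6:68151531-68152032) was at 3.17, 3.23 and 3.09 against 2.36, 1.77 and 2.13, without overlap (−1.07 ± 0.27, adjusted p = 0.010). Both windows held an octamer. The 300 bp windows at Igkv2-116 and Igkv2-109 were identical at 275 of 290 aligned bases (94.8%), so reads that fit both were not counted at either. Igkv2-109 (−1.46 ± 0.44, adjusted p = 0.028) and Igkv2-137 (−1.66 ± 0.54, adjusted p = 0.040), the V gene farthest from the J segments, were lower as well, and in the latter a single Ikaros library at 0.30 lay far below the others at 3.30 and 3.42. The remaining V segment sites past the threshold were at the pseudogene Igkv15-101 (−0.75 ± 0.21, adjusted p = 0.021), at Igkv1-35 (−0.98 ± 0.30, adjusted p = 0.031) and upstream of Gm43586.

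The site 418 bp upstream of the V pseudogene Gm43586 (chr6:70041000-70041130) was lower in the Ikaros line at every time without overlap. Its levels in the Control line were 5.58, 4.86 and 5.46 at 0 h, 5.16, 5.05 and 4.77 at 2 h, 5.62, 5.38 and 5.17 at 6 h, 4.95, 4.88 and 5.06 at 12 h, 5.34, 5.31 and 5.26 at 18 h, and 5.18, 4.91 and 5.38 at 24 h. In the Ikaros line they were 2.41, 3.86 and 3.79 at 0 h, 3.63, 4.19 and 4.43 at 2 h, 3.43, 3.96 and 3.97 at 6 h, 4.38, 4.52 and 4.46 at 12 h, 3.67, 4.07 and 4.09 at 18 h, and 3.91, 4.46 and 4.18 at 24 h. Every Control library was above every Ikaros library. The difference passed at 0 h (−1.95 ± 0.27, limma adjusted p = 0.00015), 6 h (−1.60, adjusted p = 0.0035) and 18 h (−1.36, adjusted p = 0.011). It did not pass at 24 h (−0.98, adjusted p = 0.059), 2 h (−0.90, adjusted p = 0.15) or 12 h (−0.51, adjusted p = 0.35).

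Of the 24 intergenic kappa sites 6 were lower past the threshold at 0 h. A site 21.6 kb from Igkv14-130 (chr6:67812613-67812762) was at 3.97, 4.51 and 4.40 in the Control line and 1.01, 2.58 and 3.17 in the Ikaros line, a difference of −2.04 ± 0.40 (limma adjusted p = 0.0018) without overlap. The only kappa window with a CTCF core motif (chr6:68102624-68102756) differed by −1.28 ± 0.30 (adjusted p = 0.0061). The others, at chr6:70033816-70033949 (−1.99), chr6:69517841-69517973 (−1.66), chr6:68978023-68978176 (−1.26) and chr6:68799149-68799649 (−0.93), had limma adjusted p from 0.017 to 0.045. With the replicate number as a block those at chr6:68978023-68978176 and chr6:68799149-68799649 had adjusted p of 0.0554 and 0.0548. The most open intergenic site (chr6:68884090-68884631) differed by −0.29 ± 0.25 (adjusted p = 0.48).

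At the joining end of Igk 2 of 3 sites were lower past the threshold at 0 h. In the V to J gap, the site 12.5 kb 5′ of Igkj1 (chr6:70709222-70710110) was at 4.45, 4.46 and 4.43 in the Control line and 3.74, 3.73 and 4.00 in the Ikaros line at 0 h, without overlap (−0.62 ± 0.14, limma adjusted p = 0.0058). At 24 h it was at 4.30, 4.01 and 4.09 against 4.26, 4.16 and 4.09 (0.04 ± 0.14, adjusted p = 0.94). The nearer site, 7.9 kb 5′ of Igkj1 (chr6:70714165-70714650), was at 4.70, 4.48 and 3.90 against 4.48, 3.96 and 3.72 at 0 h, with overlapping groups (−0.30 ± 0.21, adjusted p = 0.36), and passed at no time.

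The site 8.6 kb 3′ of Igkc (chr6:70735613-70735743) was the only DHS on that side of the gene within the Igk interval examined. At 0 h it was at 4.77, 3.42 and 3.41 in the Control line and 2.34, 1.77 and 3.56 in the Ikaros line. The groups overlapped through a single Ikaros library, and the difference was −1.31 ± 0.39 (limma adjusted p = 0.025). At 6 h the levels were 3.79, 4.67 and 4.73 against 3.33, 3.57 and 2.89, and at 18 h 4.71, 5.17 and 4.30 against 3.47, 3.26 and 3.67. Neither time had overlap, and neither passed (−1.13, adjusted p = 0.17, and −1.26, adjusted p = 0.12). The levels were 4.11, 4.36 and 3.68 against 3.73, 3.52 and 3.24 at 2 h, 4.22, 4.69 and 3.45 against 4.00, 3.38 and 4.16 at 12 h, and 3.99, 4.39 and 4.43 against 3.27, 3.73 and 4.07 at 24 h. In the order of the group means all 6 Control groups (3.87 to 4.73) stood above all 6 Ikaros groups (2.56 to 3.85), although every pair of neighbours in that order overlapped.

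**Figure D4:**
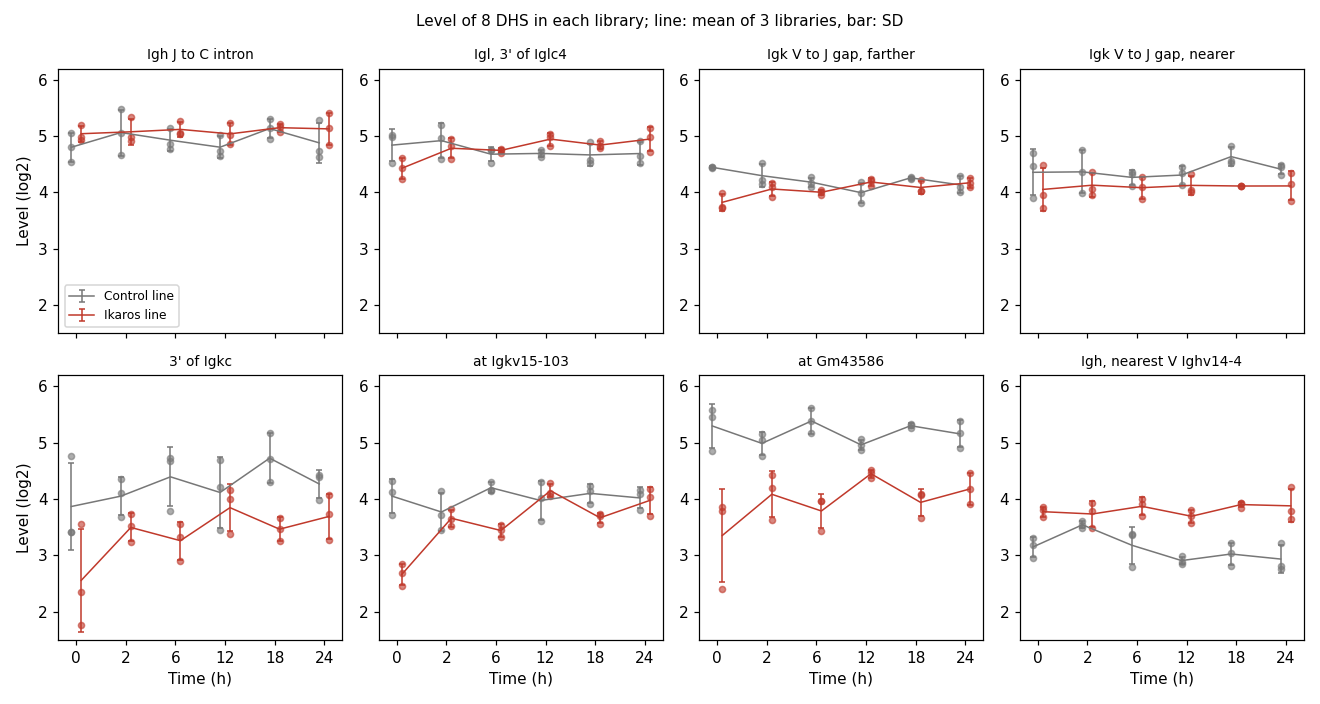
Level (log2) of 8 DHS in each library against time in h, with points for libraries, lines through the means of 3 libraries and bars for SD; grey is the Control line and red the Ikaros line. The site between the J segments and Ighm stays between 4.54 and 5.48 in both lines, the site at Igkv15-103 is apart at 0 h and overlaps at 24 h, and at Gm43586 the red points lie below the grey at all 6 times.

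In Igl, the site 34.2 kb 3′ of Iglc1 (chr16:19027261-19027378) was the only one past the threshold. At 0 h it was at 4.66, 4.55 and 3.66 in the Control line and 2.78, 3.73 and 3.02 in the Ikaros line, which overlapped (−1.12 ± 0.35, limma adjusted p = 0.035). Its near-copy 15.3 kb 3′ of Iglc4 (chr16:19179145-19179688) was at 4.98, 5.02 and 4.51 against 4.24, 4.61 and 4.44 (−0.41 ± 0.16, adjusted p = 0.093). At 24 h both were higher on average in the Ikaros line, by 0.48 and 0.26, without passing (adjusted p = 0.58 and 0.50). Reads that fit both copies were left out by unique mapping, so the levels rest on reads that reach a base in which the copies differ.

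In Igh at 0 h 3 sites passed. An intergenic site 5.9 kb 5′ of Ighv14-4 (chr12:114182480-114183148) was higher in the Ikaros line, at 3.85, 3.80 and 3.68 against 3.31, 3.18 and 2.96 (0.63 ± 0.20, limma adjusted p = 0.041, and 0.0516 with the replicate block). A site at Ighv1-62-1 (chr12:115386632-115386762) was at 0.36, −0.08 and 2.66 in the Ikaros line and 3.44, 2.74 and 2.67 in the Control line (−1.97 ± 0.53, adjusted p = 0.015), so the third Ikaros library was next to the lowest Control library. An intergenic site at chr12:114981425-114981936 was at 2.66, 3.02 and 3.39 against 3.80, 3.63 and 3.91 (−0.75 ± 0.26, adjusted p = 0.049, and 0.0603 with the replicate block).

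The kappa difference narrowed after 4-OHT. The median difference over the 44 sites was −0.37 at 2 h (36 lower), −0.41 at 6 h (40 lower), 0.18 at 12 h (16 lower), −0.25 at 18 h (31 lower) and 0.06 at 24 h (18 lower), while DHS outside promoters had medians of 0.02, −0.03, 0.13, 0.05 and 0.11. At 24 h the kappa median had the opposite sign, −0.16, after quantile normalization and was −0.28 with trends removed. The median level per library at 24 h was 3.68, 3.70 and 3.75 in the Control line and 4.01, 3.78 and 3.57 in the Ikaros line, which overlapped. Against 0 h of the same line, 40 of 44 kappa sites were higher at 2 h and 39 of 44 at 24 h in the Ikaros line (medians 0.44 and 0.69), whereas 21 and 10 of 44 were higher in the Control line (−0.02 and −0.18). All 6 lambda sites were above their 0 h level at every later time in the Ikaros line. Since 0 h cells were obtained separately by the methods, time and collection cannot be told apart in comparisons with 0 h.

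**Figure D5:**
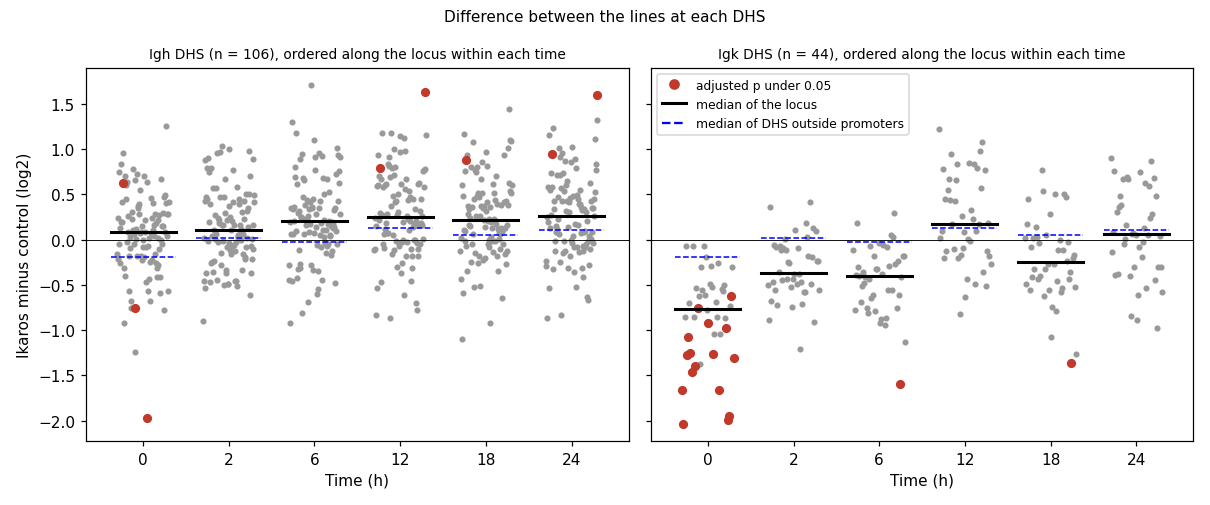
Difference between the Ikaros and Control lines (log2, vertical axis) of each DHS at each time in h, for Igh (106 DHS, left) and Igk (44 DHS, right), ordered along the locus within a time. Red points passed the limma threshold, black bars are the medians of the locus and blue dashes the medians of DHS outside promoters. All kappa points lie below 0 at 0 h with a median of −0.76; the heavy chain median of 0.26 at 24 h turned to −0.03 after quantile normalization and −0.08 with trends removed.

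Few single sites differed once 4-OHT had been added. At 2 h 0 of the 156 sites passed by limma (0.195% of all DHS; 17 at an unadjusted p under 0.05). At 6 h 1 passed (0.578% of all DHS; 0.422% higher and 0.155% lower in the Ikaros line), the lower site at Gm43586. At 12 h 2 passed (1.31% of all DHS), both in Igh, and at 18 h 2 (0.699%), the Gm43586 and Ighv14-4 sites. At 24 h 2 passed, both in Igh (1.33% of all DHS; 0.809% higher and 0.517% lower in the Ikaros line). The site 5.9 kb 5′ of Ighv14-4 remained higher in the Ikaros line, at 3.58, 3.81 and 3.70 against 2.85, 2.89 and 2.99 at 12 h, 3.85, 3.94 and 3.92 against 2.82, 3.22 and 3.04 at 18 h, and 4.21, 3.79 and 3.65 against 2.76, 2.82 and 3.23 at 24 h, without overlap.

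Its differences were 0.79, 0.88 and 0.94 (± 0.20; limma adjusted p = 0.047, 0.034 and 0.018), of which the replicate block put those at 12 and 18 h at 0.0646 and 0.0508. At chr12:114182480-114183148 the value at 24 h was 0.69 after quantile normalization (adjusted p = 0.082) and 0.47 with trends removed (adjusted p = 0.37). At 2 h the groups overlapped (0.19 ± 0.20). A narrow site 113 bp upstream of Ighv1-85 (chr12:116000524-116000624), the functional V gene farthest from the J segments, was at 4.02, 3.85 and 3.74 in the Ikaros line and 1.62, 2.38 and 2.70 in the Control line at 12 h (1.63 ± 0.39, limma adjusted p = 0.032), and at 3.96, 4.01 and 4.17 against 2.09, 3.12 and 2.15 at 24 h (1.59 ± 0.39, adjusted p = 0.035). With trends removed its values were 0.98 and 0.91 (adjusted p = 0.33 and 0.36), so none of the heavy chain sites passed at 24 h in that setting, and after quantile normalization its value at 12 h was 1.15 (adjusted p = 0.13).

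Over the whole heavy chain locus the difference at 24 h was small and its direction depended on the scaling: 73 of 106 sites were higher in the Ikaros line with a median of 0.26, whereas the median was −0.03 after quantile normalization and −0.08 with trends removed. The median level per library was 3.58 ± 0.10 at 0 h and 3.23 ± 0.01 at 24 h in the Control line (SD, n = 3), and 3.63 ± 0.11 and 3.54 ± 0.09 in the Ikaros line. The most open V sites passed no test: upstream of Ighv1-67 the values at 24 h were 5.40, 5.54 and 5.72 in the Control line and 5.32, 5.39 and 5.58 in the Ikaros line (−0.13 ± 0.20, limma adjusted p = 0.84), and the differences upstream of Ighv1-69 (−0.41 ± 0.33) and at Ighv8-12 (0.08 ± 0.18) did not pass either (adjusted p = 0.62 and 0.89).

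The change of the difference between the lines from 0 h to 24 h passed for 10 of 156 sites (6.26% of all DHS), 9 rises (2.85% of all) and 1 fall (3.4% of all). In Igk 6 rose: Igkv2-137 (2.57 ± 0.77), the site near Igkv14-130 (1.90 ± 0.57), Igkv2-112 (1.61 ± 0.43), Igkv2-116 (1.38 ± 0.38), Igkv15-103 (1.35 ± 0.29) and the farther site of the V to J gap (0.66 ± 0.20), with limma adjusted p from 0.012 to 0.049. The kappa median was 0.86 beside 0.12 for all DHS and 0.31 for those outside promoters. Outside promoters 1429 of 39131 DHS rose past the threshold and 423 fell, so rises were the more common there as well. Quantile normalization moved the median of all DHS to −0.04 and that of Igk to 0.41. In Igh, Ighv1-62-1 (2.86 ± 0.75), Ighv1-85 (2.17 ± 0.55) and chr12:114981425-114981936 (1.29 ± 0.36) rose. The site at Ighv11-1 (chr12:113981739-113981885), the V site nearest to the J segments, fell by 1.61 on the log2 scale (SE 0.49, limma adjusted p = 0.045, and 0.0567 with the replicate block). It was at 4.20, 2.93 and 3.27 in the Control line and 4.35, 3.81 and 4.50 in the Ikaros line at 0 h, and at 4.40, 4.73 and 4.38 against 3.88, 3.79 and 3.26 at 24 h. With the block 6 of the 10 passed, and the sites at Igkv2-137, near Igkv14-130 and in the V to J gap were at adjusted p of 0.0528, 0.0548 and 0.0634. After quantile normalization 2 of the 156 sites passed and with trends removed 1.

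Counted from 2 h, when both lines had received the drug, the change to 24 h passed limma's threshold at 0 of 156 sites (6 at an unadjusted p under 0.05) and at 0 of all DHS (0%). Change over time within the Ikaros line passed at 4 sites, all in Igk (2.29% of all DHS): Igkv15-103, Igkv2-116, Igkv2-112 and the site near Igkv14-130. With the replicate block 2 passed, and Igkv2-116 and Igkv2-112 were at adjusted p of 0.0532 and 0.0761. Within the Control line limma passed 0 sites (0.148% of all DHS; 26 at an unadjusted p under 0.05).

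Among the promoters of genes that act on these loci none was lower in the Ikaros line past the threshold at 0 h. Of all promoter DHS 1.22% were lower, so a count of 0 does not set these genes apart. Of 8 recombination genes 6 had a promoter DHS (Rag1, Xrcc5, Xrcc6, Lig4, Dclre1c and Hmgb1) and none of their 8 DHS passed at 0 h, at 24 h or in the change, with a median difference at 0 h of 0.21 beside 0.34 for all 13657 promoter DHS. Of 8 genes whose products form part of the pre-B receptor or carry its signal, such as Igll1, Vpreb1, Cd79a and Blnk, 7 had one. None of their 10 DHS passed, with a median of 0.12. Of 18 factors known to act at immunoglobulin loci 16 had one, Ikzf1 and Ikzf3 not. The methods of the study name the Ikzf1 promoter among those known to be hypersensitive in these cells. Its absence from the consensus DHS can therefore not be read as a closed promoter. At 0 h 9 of the 23 factor DHS were higher in the Ikaros line and 0 lower, with a median of 0.47. Of all DHS 7.81% were higher at 0 h, but of the promoter DHS 24.8% were higher and 1.22% lower, so a shift in this direction was general to promoters. The factor DHS lay at Pou2f1, which encodes Oct1 (1.12, limma adjusted p = 0.00022), Ctcf (1.14 and 1.66), Yy1 (0.73 and 1.17), Foxo1 (1.08), Tcf12 (1.26), Irf8 (0.62) and Mef2c (0.57).

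At 24 h 1 of the 23 factor DHS passed, a second Pou2f1 promoter DHS (0.96 ± 0.25, limma adjusted p = 0.047). From 0 h to 24 h the difference fell past the threshold at 5 and rose at 0: at Pax5 (−1.02 ± 0.28), Irf8 (−0.98 ± 0.28), Pou2f1 (−0.94 ± 0.24), Yy1 (−1.34 ± 0.36) and Ctcf (−1.11 ± 0.29), with limma adjusted p from 0.021 to 0.037. Of all promoter DHS 10.1% fell and 0.556% rose in this comparison, with a median of −0.42. At the erythroid marker Klf1 the promoter DHS was likewise higher at 0 h (0.65, adjusted p = 0.024) and its difference fell by 24 h (−1.09 ± 0.27, adjusted p = 0.020). Whether these promoters and the kappa sites moved for a shared reason was not tested.

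Because no DHS overlapped or lay within 1000 bp of Ighm or Igkc, likeness was measured for the nearest site of each, as Pearson's r over the 12 group means against the 52632 DHS outside the loci. The 5 DHS most like the site next to Ighm had r from 0.968 to 0.983 and included the promoter of Pola2, a subunit of DNA polymerase alpha (0.968). The 5 most like the site 3′ of Igkc had r from 0.990 to 0.996 and included the promoter of the unnamed gene Gm37169 (0.990). Between these sites themselves r was −0.30 over the 12 groups. The groups share libraries with every DHS compared, and the highest of so many values are a description only.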

How the data were processed

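DNase-seq of 36 libraries (12 groups of 3) was analysed. Per the study's methods and the submitters' processing notes, the authors mapped reads uniquely to mm10 with Bowtie, called peaks with HOMER, merged peaks shared by the replicates of a time point into consensus DHS, counted reads with bedtools, left out DHS under a count minimum, and scaled by RPKM and TMM before ARSyN, a method that removes systematic noise. The deposited log2 values come without counts, so the depth behind them is not known and intervals for counting error cannot be given; the log base is taken from the range of the values. ARSyN and the required overlap of replicates can shrink the spread between libraries, and so p-values.

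DHS were joined by position to GENCODE genes (GRCm38, 375 V segments in the loci). A V segment site lay within 1000 bp of a V gene or V pseudogene, and a promoter site within 1000 bp of a start. limma 3.58.1 in R 4.3.3 was fitted to all 52788 DHS and 36 libraries with 12 group means, an intensity trend and 1 shared spread, two-sided, with Benjamini-Hochberg adjustment over all DHS at a threshold of 0.05; differences are Ikaros minus Control. The scripts were tested on simulated data. Sites named are every site outside the V regions, the 3 highest and the 3 largest differences in each direction at 24 h in each V region, every site past the threshold in any comparison, and the DHS most like the sites nearest to Ighm and Igkc. The sites and gene lists were chosen with earlier results of these data known, and 1 marker gene is not reported here. Motif, distance and identity values came from Python 3.11.15.

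Replicate numbers mark batches in the labels and so pair the libraries. Deviations of same-numbered libraries from their group means correlated between −0.175 and 0.183 (median −0.015, 3 of 18 pairs over 0.1). The alternatives were quantile normalization, subtraction of loess trends (on level, on GC content and on width), a spread per group, the replicate block, the block with trends removed (added after seeing the data), the lowest 25% of levels left out, only the groups compared, and leaving out libraries. Batches were separate culture expansions of the same transduced populations, so p-values measure the spread between such expansions.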

Additional observations from a re-analysis of the deposited data

Results flagged for a closer look

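The difference between the lines was not the same at 0 h and 24 h for 10 of 156 immunoglobulin sites, by limma's test of the change itself. This was close to the share of all DHS that passed (6.26%). The count was lower after quantile normalization and with trends removed, and ran from 0 to 11 without a replicate or library. In Igk the change was 2.57 at Igkv2-137, 1.90 at the site near Igkv14-130, 1.61 at Igkv2-112, 1.38 at Igkv2-116, 1.35 at Igkv15-103 and 0.66 at the farther site of the V to J gap. In Igh it was 2.86 at Ighv1-62-1, 2.17 at Ighv1-85, 1.29 at chr12:114981425-114981936 and −1.61 at Ighv11-1. The course over all 6 times differed between the lines at Igkv15-103 (limma interaction, adjusted p = 0.0239), a call lost after quantile normalization, with trends removed and with a spread per group. Groups of 3 libraries are too small for a check of single outlying libraries. At Igkv2-137 and Ighv1-62-1 the 0 h group held libraries at 0.30, 0.36 and −0.08, the lowest values printed for the Ikaros line.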

How the results depend on the processing

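The kappa difference at 0 h kept its direction under every alternative: the median lay between −0.84 and −0.68 when a library or replicate was left out, at −0.76 with the replicate block, and between −0.92 and −0.51 over the remaining settings. Counts of single sites moved more. At 0 h 20 sites passed, against 7 after quantile normalization, 8 with trends removed, 4 with a spread per group, 7 with the replicate block and trends removed, 0 by limma with only the groups compared (20 at an unadjusted p under 0.05; 0 of all DHS), and 6 to 18 without a replicate or library. It was 8 without Control 0 h replicate 4, 10 without Control 0 h replicate 6 and 9 without Ikaros 0 h replicate 4. The share of all DHS that passed moved with the setting too. For lower calls it went from 5.04% in the main fit to 2.89% after quantile normalization. The sites at chr6:67812613-67812762, Igkv15-103 and Gm43586 passed at 0 h under every alternative but the fit on only the groups compared.

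The counts in this paragraph and the next come without the share of all DHS that passed in each alternative. They show how the number of sites moved with the setting, and not whether these loci stood out from the table. At 2 h the count of 0 ranged from 0 to 1 without a replicate or library. At 6 h 1 site passed, against 2 after quantile normalization, with trends removed and with a spread per group, 0 with only the groups compared (32 unadjusted), and 0 to 2 without a replicate or library. At 12 h 2 passed, against 1 after quantile normalization, with trends removed, with the replicate block and with block and trends, 4 with a spread per group, 0 with the lowest levels left out (8 unadjusted) or only the groups compared (26 unadjusted), and 0 to 2 without a replicate or library. At 18 h 2 passed, against 8 with a spread per group, 1 with the replicate block, with block and trends, with the lowest levels left out and with only the groups compared, and 0 to 3 without a replicate or library. At 24 h 2 heavy chain sites passed, against 1 with trends removed and with block and trends (with trends removed it was another site, chr6:68668343-68668847, at −1.21, and neither heavy chain site), 7 with a spread per group, 0 with the lowest levels left out (8 unadjusted), and 0 to 1 without a replicate or library.

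The change from 0 h to 24 h passed at 10 sites, against 2 after quantile normalization, 1 with trends removed, 4 with a spread per group, 6 with the replicate block, 1 with block and trends, 0 with only the groups compared (31 unadjusted), and 0 to 11 without a replicate or library. The change from 2 h stayed at 0 without any replicate or library. The interaction passed at 1 site, against 0 after quantile normalization (17 unadjusted), with trends removed (13), with a spread per group (16) and with block and trends (11), and 0 to 2 without a replicate or library. Time within the Ikaros line passed at 4, against 2 after quantile normalization, 1 with trends removed, 2 with the replicate block, 1 with block and trends, and 0 to 6 without a replicate or library; within the Control line it ranged from 0 to 1.

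The replicate block changed no call beyond those given with the results. Of the remaining values, 1978 were labelled unchanged, 443 weaker and 24 stronger. A site was unchanged when it stayed on its side of the threshold, and a count when it stayed similar. Direction was compared only for sites that passed in the main fit or the alternative, and 0 of them turned round. Changes of sign at other sites, or in the medians of a locus, are not counted here. In addition 1 count moved, the kappa V segment sites, 17 within 1000 bp of a V gene and 10 overlapping one. Narrow sites with low levels had the widest spread, and the filter on low levels kept 66 of the 156 sites. Depth is unknown.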

Other observations

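Of the lambda sites not described above, none passed. Between Iglv3 and Iglv2, the site at chr16:19245836-19246315 was at 3.78, 3.25 and 2.98 in the Control line and 2.88, 2.94 and 2.55 in the Ikaros line at 0 h (−0.55 ± 0.25, limma adjusted p = 0.15). At 24 h the order was turned, with 2.95, 2.49 and 2.86 against 3.49, 3.15 and 3.32 (0.56 ± 0.25, adjusted p = 0.30), and neither time had overlap. The site 8.3 kb 3′ of Iglc1 (chr16:19052759-19053295) differed by −0.69 ± 0.30 at 0 h and 0.48 ± 0.30 at 24 h (limma adjusted p = 0.12 and 0.49). The sites at chr16:19146104-19147047 and chr16:19263372-19263569 overlapped at both times.

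The V sites with the largest differences at 24 h that did not pass lay at chr12:116003067-116003197 (1.32 ± 0.59) and chr12:114256395-114256525 (1.23 ± 0.56) on the higher side, and at chr12:114783705-114783835 (−0.83 ± 0.61) and Ighv8-13 (−0.66 ± 0.44) on the lower side, with limma adjusted p from 0.28 to 0.58. In Igk they lay at chr6:69732819-69733319 (0.87 ± 0.36, adjusted p = 0.23) and Igkv14-118-2 (0.76 ± 0.40, adjusted p = 0.39), and at chr6:68668343-68668847, which was at 3.55, 3.89 and 3.45 in the Control line and 2.92, 2.58 and 2.85 in the Ikaros line without overlap (−0.84 ± 0.23, adjusted p = 0.056).

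The kappa V windows that held the heptamer and those that held the octamer were partly the same near-copies: the windows at Igkv4-58 and Igkv4-51 were identical at 250 of 261 aligned bases (95.8%) and held both motifs. Their levels rest on the reads that reach a base in which they differ.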
